A study of Mus musculus with 8 samples.

Results

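The arrays labelled KO_CTRL and KO_CTRL-B were compared, 2 of the 8 arrays of a study of imiquimod-induced, psoriasis-like inflammation in mouse dorsal skin. They were chosen by their labels alone: both come from male mice of strain B6.Cg-Il22ra1tm1.1Koll/J, which carries a targeted allele of the gene for the IL-22 receptor alpha chain, and neither label names imiquimod (IMQ) or alloferon, a peptide. The other arrays without IMQ in the label were WT_CTRL, from C57BL/6 males, and KO_Allo, from the knockout strain with alloferon cream. KO_IMQ, KO_IMQ_B, KO_IMQ_Allo (knockout) and WT_IMQ (C57BL/6) carried IMQ, given as 83.3 mg of 5% cream daily from day 1 to day 7, with vehicle or alloferon cream following 6 hours after it. The design text speaks of IMQ on both genotypes, and the sources used here do not say whether the mice behind the labels without IMQ received vehicle, or how old they were. They also leave unsaid what the letter B means, and whether an array holds 1 mouse or a pool of the 4 mice stated per group. Whether the targeted allele deletes the receptor in these mice, and in which cells, is not given either.

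Hair grows in cycles. In the growth phase, matrix cells at the base of the follicle divide and become the hair shaft, built from hair keratins cross-linked to keratin-associated proteins (KAPs), and the inner root sheath around it, built from its own keratins and trichohyalin, while melanocytes of the bulb load the shaft with pigment. In the resting phase the lower follicle has regressed and a quiescent stem cell bulge and a dermal papilla remain. Beneath the dermis and its fat, mouse back skin also holds a thin sheet of striated muscle, the panniculus carnosus, so a skin sample can carry RNA of skeletal muscle fibres.

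Values are log2 expression levels made by robust multi-array averaging (RMA), and a difference is the level on KO_CTRL-B minus that on KO_CTRL, in log2 units, so that 1 unit is 2-fold. With 1 array per label there is no replicate and no test, and a gene was counted as different past 1 unit. Of 22180 genes, 324 were higher on KO_CTRL-B (1.46%) and 307 were lower (1.38%), together 631 (2.84%). The median difference over all genes was 0.01, with quartiles of -0.19 and 0.21. The other 5 pairs of arrays without IMQ, which share arrays with each other and with this pair, differed in 253 to 699 genes. Il22ra1, the targeted gene, read 8.91 on KO_CTRL, 8.59 on KO_CTRL-B and 8.23 on WT_CTRL. Since the probes may lie outside any deleted part, these levels do not check the genotype. Both arrays carried the defining keratin of basal epidermis, Krt14 (10.97 and 11.23), and the Y-linked genes Uty (8.92 and 8.67) and Kdm5d (7.21 and 7.27), with Xist at background (3.40 and 3.98). As a reference for background signal, the 95th percentile of 1088 olfactory receptor genes, most of which skin is not known to use, lay at 5.45 on KO_CTRL and 5.41 on KO_CTRL-B. A gene below it is called within the olfactory range.

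A hair group and a muscle group stood out among the genes that set the arrays apart, most of all among the largest differences. The lists were chosen with earlier results of these data known, so this is a description. Of all 22180 genes, the hair lists below held 81 and the muscle fibre lists 97. Among the 324 genes higher on KO_CTRL-B, 76 (23.5%) belonged to the lists of hair shaft keratins, KAPs, and inner root sheath and medulla genes, and none to the muscle fibre lists. Among the 307 lower genes, 63 (20.5%) belonged to 4 lists of skeletal muscle fibre genes, and none to those hair lists. Most genes past 1 log2 unit, in either direction, were in none of the lists: 101 of the 324 higher (31.2%) and 82 of the 307 lower (26.7%) belonged to any list. Past 2 log2 units the hair and muscle shares were larger, at 66 of 116 higher genes (56.9%) and 26 of 43 lower genes (60.5%). In bulk skin, fewer cells of a type and less RNA per cell cannot be told apart.

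**Figure D1:**
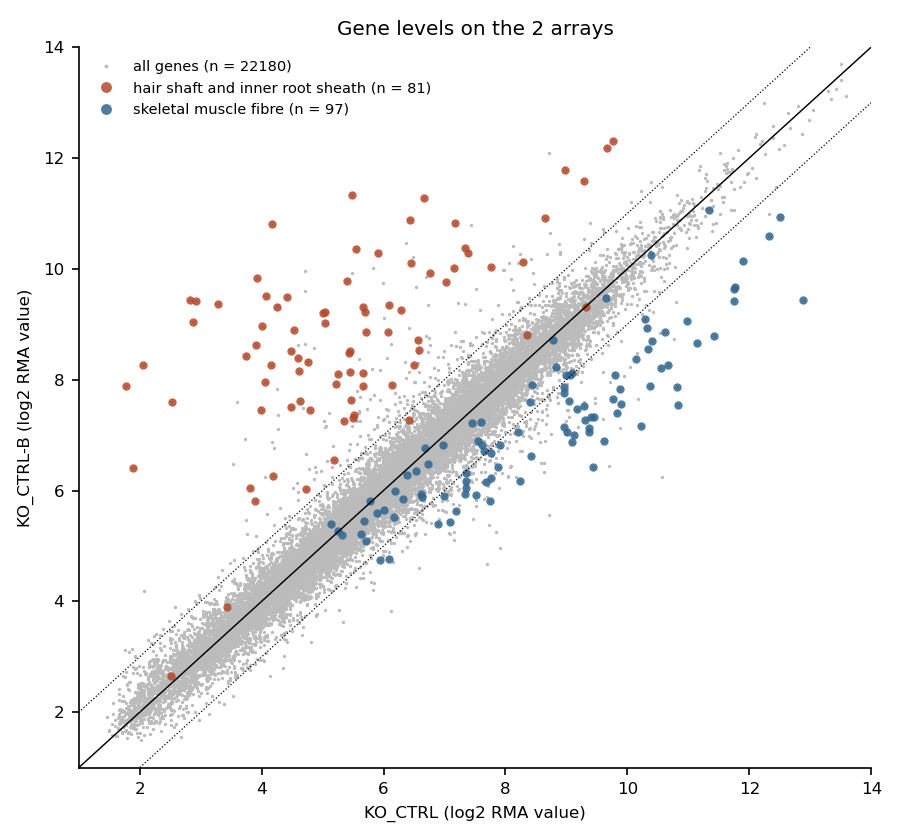
Level of each of 22180 genes on KO_CTRL (horizontal, log2 RMA value) against KO_CTRL-B (vertical, log2 RMA value); red points are the 81 hair shaft and inner root sheath genes, blue points the 97 skeletal muscle fibre genes, the solid line marks equal levels and dotted lines a difference of 1 log2 unit. Of the red points 76 lie above the upper dotted line, and of the blue points 63 lie below the lower one.

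Promoters are shown for 6 chosen genes of the hair and the muscle group. Each carries the motif marked for its group, so they are not a sample of the groups. Each run is the 250 bases before the gene's start in RefSeq on GRCm38.p6, 5′ to 3′ along the gene's own strand. The hair genes are Krtap22-2 at chr16:89010760-89011009 (minus strand), Krtap4-2 at chr11:99635085-99635334 (minus) and Krt31 at chr11:100050552-100050801 (minus), and capitals mark TATAAA, a form of the TATA box.
Krtap22-2: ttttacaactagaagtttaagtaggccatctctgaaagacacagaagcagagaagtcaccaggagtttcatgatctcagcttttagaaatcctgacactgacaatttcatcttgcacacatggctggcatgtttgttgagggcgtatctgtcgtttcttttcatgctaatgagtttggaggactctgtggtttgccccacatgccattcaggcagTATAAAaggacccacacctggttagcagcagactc
Krtap4-2: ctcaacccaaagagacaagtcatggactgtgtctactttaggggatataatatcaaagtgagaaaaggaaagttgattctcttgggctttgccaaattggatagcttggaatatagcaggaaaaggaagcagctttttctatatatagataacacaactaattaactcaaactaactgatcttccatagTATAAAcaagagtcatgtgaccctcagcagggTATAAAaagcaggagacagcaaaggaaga
Krt31: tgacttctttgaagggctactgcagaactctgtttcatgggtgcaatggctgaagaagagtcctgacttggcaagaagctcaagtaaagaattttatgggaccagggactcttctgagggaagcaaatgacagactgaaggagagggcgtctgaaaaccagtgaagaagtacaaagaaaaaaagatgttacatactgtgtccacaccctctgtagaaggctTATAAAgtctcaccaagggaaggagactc
The muscle genes are Myh4 at chr11:67237562-67237811 (plus strand), Mylpf at chr7:127211358-127211607 (plus) and Pygm at chr19:6384158-6384407 (plus), and capitals mark CAGCTG, a form of the E-box that myogenic factors such as MyoD are known to bind. The Myh4 run also holds TATAAA, left in lower case because only CAGCTG was marked in the muscle genes.
Myh4: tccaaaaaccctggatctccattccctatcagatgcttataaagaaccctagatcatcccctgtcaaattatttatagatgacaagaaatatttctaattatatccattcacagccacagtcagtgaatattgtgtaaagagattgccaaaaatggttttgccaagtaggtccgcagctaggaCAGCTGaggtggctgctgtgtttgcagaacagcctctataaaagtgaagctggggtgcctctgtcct
Mylpf: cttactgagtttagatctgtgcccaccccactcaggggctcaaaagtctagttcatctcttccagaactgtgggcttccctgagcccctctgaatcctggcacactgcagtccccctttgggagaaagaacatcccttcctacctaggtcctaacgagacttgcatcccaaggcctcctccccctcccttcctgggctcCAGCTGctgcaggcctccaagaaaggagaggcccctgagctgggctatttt
Pygm: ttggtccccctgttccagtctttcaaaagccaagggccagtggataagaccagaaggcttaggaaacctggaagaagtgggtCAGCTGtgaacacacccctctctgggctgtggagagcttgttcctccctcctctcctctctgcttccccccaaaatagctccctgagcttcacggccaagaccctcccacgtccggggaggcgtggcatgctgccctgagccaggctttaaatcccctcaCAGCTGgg

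Letter counts in these windows, read on both strands, differed between the hair and the muscle group. The motifs were picked with the groups known. TATAAA was present in 53 of the 68 hair and inner root sheath genes with a promoter in the table (77.9%), in 10 of 72 muscle fibre genes (13.9%) and in 13.0% of all 27025 promoters. In Krtap22-2, Krtap4-2 and Krt31 its nearest copy began 35, 29 and 29 bases before the start. CAGCTG was present in 31 of 72 muscle promoters (43.1%) and in 2 of 68 hair promoters (2.9%), against 12.8% of all. A match to the MEF2 motif, a site for another family of muscle factors, was found in 12 of 72 muscle promoters (16.7%) and in 3.0% of all. CTTTGAA, a form of the site read by LEF and TCF factors, was present in 12 of 68 hair promoters (17.6%) and in 4.6% of all. By list it was in 5 of 9 hair shaft keratin promoters (55.6%), 6 of 46 KAP promoters (13.0%) and 1 of 13 inner root sheath and medulla promoters (7.7%). CCAAT, searched for comparison, came to 35.3% in hair, 34.7% in muscle and 34.5% in all promoters. Neighbouring KAP genes are similar copies of each other, so their promoters are not independent of one another, and a match is a stretch of letters, not a measured binding site.

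All 15 hair shaft keratins measured were higher on KO_CTRL-B, by 1.81 to 4.45 log2 units (median 2.96). Krt33a, a keratin of the hair cortex, read 6.43 on KO_CTRL and 10.88 on KO_CTRL-B, a ratio of 21.8, with 10.11 on WT_CTRL and 8.92 on KO_Allo. Krt87, another hair keratin, read 4.54 and 8.90, and Krt33b 5.04 and 9.22. Krt31 went from 5.70 to 9.22 and Krt83 from 7.17 to 10.82. The smallest differences were those of Krt40 (5.50 and 7.30) and Krt84 (5.36 and 7.25). The list's median level was 5.71 on KO_CTRL, 7.30 on KO_Allo, 8.20 on WT_CTRL and 8.90 on KO_CTRL-B. KO_CTRL was thus the low array of the 4 without IMQ, and its median lay close to those of KO_IMQ (5.63), WT_IMQ (5.70) and KO_IMQ_Allo (5.72), with KO_IMQ_B at 6.54. These keratins are close copies of each other, and probes may be shared between them.

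Of 51 KAPs measured, 47 were higher on KO_CTRL-B and none lower, with a median difference of 3.80, the largest of the 36 lists. Without dim genes the median was 2.86, below the 3.15 of the hair shaft keratins. With clone-type symbols left out, the 10 largest positive differences among genes above the median level on the higher array were all KAPs. These 10 lay below that level on KO_CTRL and entered only through KO_CTRL-B, so this is a description. They were led by Krtap22-2 (4.16 on KO_CTRL, 10.81 on KO_CTRL-B), Krtap19-1 (2.83 and 9.44) and Krtap4-2 (2.93 and 9.42). On KO_CTRL 38 of the 51 lay within the olfactory range, against 2 on KO_CTRL-B, so most KAP differences run from background signal upward and RMA may understate them. The 4 that did not pass were Krtap13 (2.52 and 2.65, within the olfactory range on both), Krtap20-2 (3.43 and 3.90, likewise), Krtap4-13 (8.35 and 8.80) and Krtap4-9 (6.42 and 7.27). Counts of KAPs are uncertain as counts of separate genes, since near-identical copies may share probes.

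Split by protein composition, a split made after the values were seen, the KAP classes ranked the arrays differently. The 15 genes of glycine-tyrosine-rich families (Krtap6, 7, 8, 19, 20, 21 and 22) had a median level of 3.82 on KO_CTRL, 4.60 on KO_Allo, 7.03 on WT_CTRL and 9.31 on KO_CTRL-B, and 14 passed 1 log2 unit with a median difference of 5.06. The 30 genes of cysteine-rich families had medians of 4.90, 7.16, 7.08 and 8.27 on those arrays, and 27 passed with a median difference of 3.01. KO_Allo therefore lay near KO_CTRL for the first class and level with WT_CTRL for the second. Krtap19-5 of the first class read 3.28 on KO_CTRL, 4.60 on KO_Allo, 7.09 on WT_CTRL and 9.36 on KO_CTRL-B. Krtap4-2 of the second read 2.93, 8.57, 7.72 and 9.42. Not every gene of the first class followed its median: Krtap8-1 read 8.89 on KO_Allo and Krtap7-1 7.75, both well above their KO_CTRL levels of 5.48 and 5.40. Nor did every gene of the second class. Krtap27-1 read 5.52 on KO_CTRL, 5.69 on KO_Allo and 6.64 on WT_CTRL, and Krtap13-1 read 4.61, 5.85 and 7.13. The remaining 6 KAPs were all higher on KO_CTRL-B, with a median difference of 3.49.

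**Figure D2:**
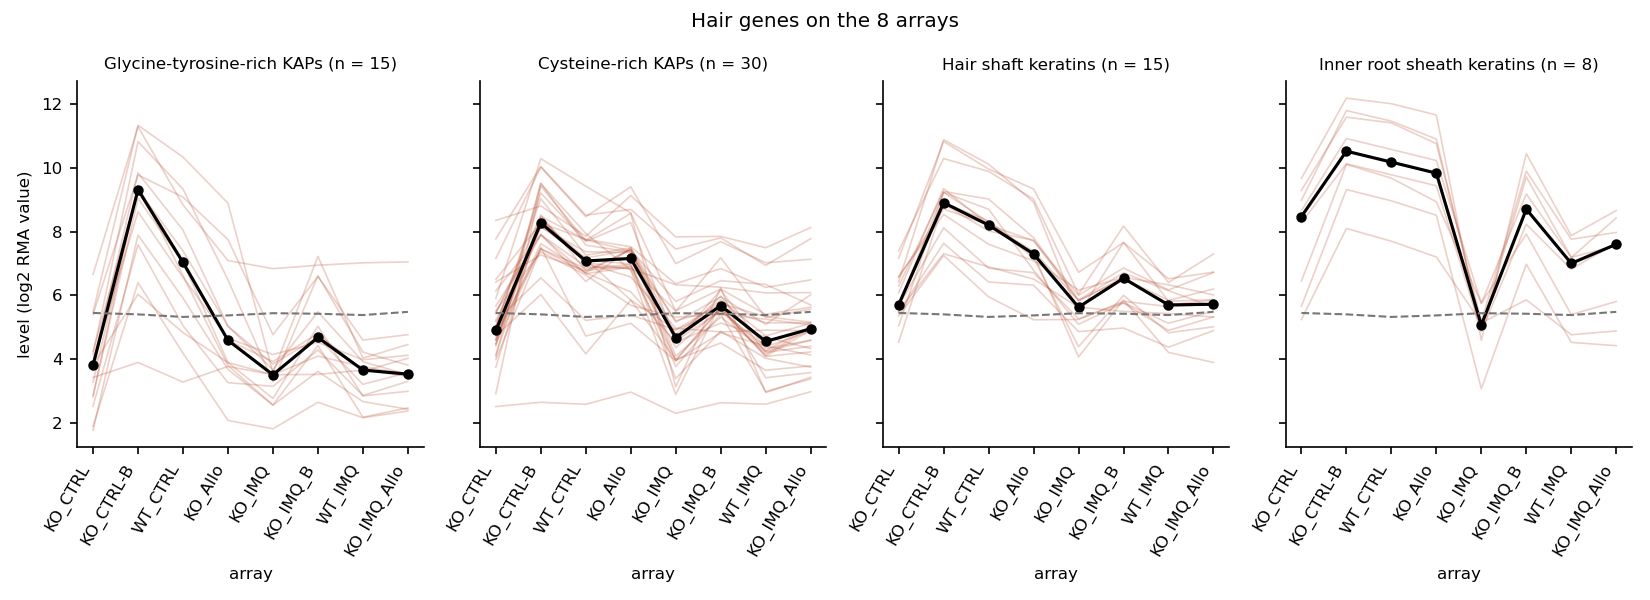
Levels (vertical, log2 RMA value) of 4 classes of hair genes on the 8 arrays (horizontal); each thin line is a gene, the black points are the class median, and the dashed grey line is the 95th percentile of olfactory receptor genes. The medians on KO_CTRL-B are the highest of the 8 arrays in all 4 panels (9.31, 8.27, 8.90 and 10.52), and only the inner root sheath keratins lie well above the dashed line on KO_CTRL (8.47).

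Genes of the inner root sheath and medulla were also higher on KO_CTRL-B, in 14 of 15 cases (median difference 2.78), but were not near background on KO_CTRL, where 1 of the 15 lay within the olfactory range. Trichohyalin (Tchh), which hardens the sheath, read 9.77 on KO_CTRL and 12.30 on KO_CTRL-B, and Krt71, a sheath keratin, 9.66 and 12.18. Krt27 read 8.98 and 11.79, and Krt26 5.66 and 9.31. All 8 sheath keratins differed by 1.84 to 3.65 log2 units. Tchhl1, a trichohyalin relative, had the largest difference of the list (5.55 and 10.36, a ratio of 28.1). Padi3, an enzyme that modifies trichohyalin, read 7.33 and 10.37, and Dsg4, a desmosomal cadherin of the hair, 7.02 and 9.77. Gata3, a transcription factor of the inner root sheath that other skin cells also use, read 9.32 on both arrays. The array order of the list medians was the same as for the hair keratins: 7.33 on KO_CTRL, 9.43 on KO_Allo, 9.67 on WT_CTRL and 10.12 on KO_CTRL-B.

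Taking the 3 hair lists as 81 genes, KO_CTRL was the lowest of the 4 arrays without IMQ for 75 and KO_CTRL-B the highest for 76. KO_CTRL-B was also the highest of all 8 arrays for 76 of them. The 76 that passed on KO_CTRL-B were closer to it on WT_CTRL in 61 cases (80.3%) and on KO_Allo in 45 (59.2%). Over all 324 genes higher on KO_CTRL-B, the counts were 235 (72.5%) and 211 (65.1%). WT_CTRL and KO_Allo thus sat between the 2 knockout arrays for most hair genes.

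Other genes with the same order of the 4 arrays, picked out after their values were seen, included S100a3, a calcium-binding protein of the hair cuticle (7.43 on KO_CTRL, 9.55 on KO_Allo, 10.60 on WT_CTRL and 10.79 on KO_CTRL-B). Prr9 read 6.48, 9.25, 9.73 and 10.21 on those arrays. Gprc5d, an orphan receptor of hard keratinised structures, read 4.26, 6.01, 6.84 and 7.84. Crym, a thyroid hormone binding protein, read 6.75, 7.59, 8.39 and 8.63.

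Regulators that act upstream of the shaft differed less than the structural genes. Of 36 matrix and precortex regulators, 6 passed 1 log2 unit, all higher on KO_CTRL-B, and 30 had a positive difference (median 0.44). The 6 were transcription factors. Hoxc13, which drives hair keratin genes, read 6.74 on KO_CTRL and 8.50 on KO_CTRL-B. Elf5 read 5.56 and 7.26, and Lef1, the nuclear partner of Wnt signalling in the precortex, 7.87 and 9.34. Msx2 (6.26 and 7.60), Dlx3 (8.19 and 9.39) and Foxn1, the gene altered in nude mice (6.38 and 7.56), completed them. All 6 read highest on KO_CTRL-B and lowest on KO_CTRL among the arrays without IMQ.

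The signalling genes of the follicle lay under the threshold. Among Wnt ligands, Wnt11 differed by 0.81, Wnt10b by 0.77 and Wnt5a by 0.66, and among Notch genes Notch1 differed by 0.90 and Jag1 by 0.86. Shh, the Hedgehog ligand of the growing matrix, lay within the olfactory range on both arrays (4.96 and 5.07), and its targets Ptch1 (9.32 and 9.28) and Gli1 (6.96 and 7.10) were nearly level, while Hhip, another target, read 6.72 and 7.54 and Gli2 7.14 and 7.52. Bmp4 read 7.75 and 7.70.

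For genes of cells that persist through the cycle, the list medians differed little between the arrays. None of 23 dermal papilla genes passed (median difference 0.20): Corin read 7.20 and 7.30, Alpl 6.15 and 6.52, and Sox2 4.18 and 4.08, which is within the olfactory range. The list ran from -0.57 for Fgf10 to 0.75 for Wif1, 0.82 for Hhip and 0.95 for Spon1, with 15 positive and 8 negative. Of 24 bulge and hair germ genes, 1 passed, Postn, a matrix protein that fibroblasts also make (10.06 and 11.20). Cdh3 (0.82) and Wif1 (0.75) came next, and 14 of the list were positive and 10 negative. Lgr5 read 8.15 and 8.58, Krt15 10.94 and 10.80, and Cd34, also a marker of vessels and fibroblasts, 10.04 and 9.65. Resting-phase signals had a median difference of 0.12, and the 2 of 18 that passed, Krt75 (8.06 and 10.10) and Krt6a (8.09 and 9.81), are keratins of the companion layer as well. Fgf18, a signal of the resting bulge, read 6.41 and 6.15, and Fgf5, which ends the growth phase, 5.47 and 6.23.

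Cell cycle genes, which would be used by dividing matrix cells and by any other dividing cell, were shifted slightly and together. Of 28, none passed 1 log2 unit, 25 were positive and 3 negative, and the median difference was 0.41. Mcm2, a replication licensing factor, had the largest difference (6.80 and 7.50), followed by Mcm5 (7.22 and 7.89). The list's median level was 7.19 on KO_CTRL and between 7.60 and 7.63 on KO_Allo, WT_CTRL and KO_CTRL-B.

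Pigment genes followed the hair genes. Of 16 melanocyte genes, 9 were higher on KO_CTRL-B and none lower (median difference 1.35). Tyr, the rate-limiting enzyme of melanin synthesis, read 5.03 on KO_CTRL, 5.98 on KO_Allo, 6.98 on WT_CTRL and 7.26 on KO_CTRL-B. Pmel, the fibril protein of the melanosome, read 7.23, 8.25, 8.97 and 9.38 on those arrays. Oca2, Tyrp1, Slc45a2, Mlana and Dct, also of the pigment machinery, differed by 1.38 to 2.08. Slc24a4 (1.31) and Ednrb, which other skin cells also carry (1.89), passed as well. The 7 that did not pass were Kit (0.94), Trpm1 (0.85), Mc1r (0.71), Gpr143 (0.65), Mitf (0.57), Rab27a (0.18) and Sox10 (-0.22), which include both pigment and lineage genes.

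**Figure D3:**
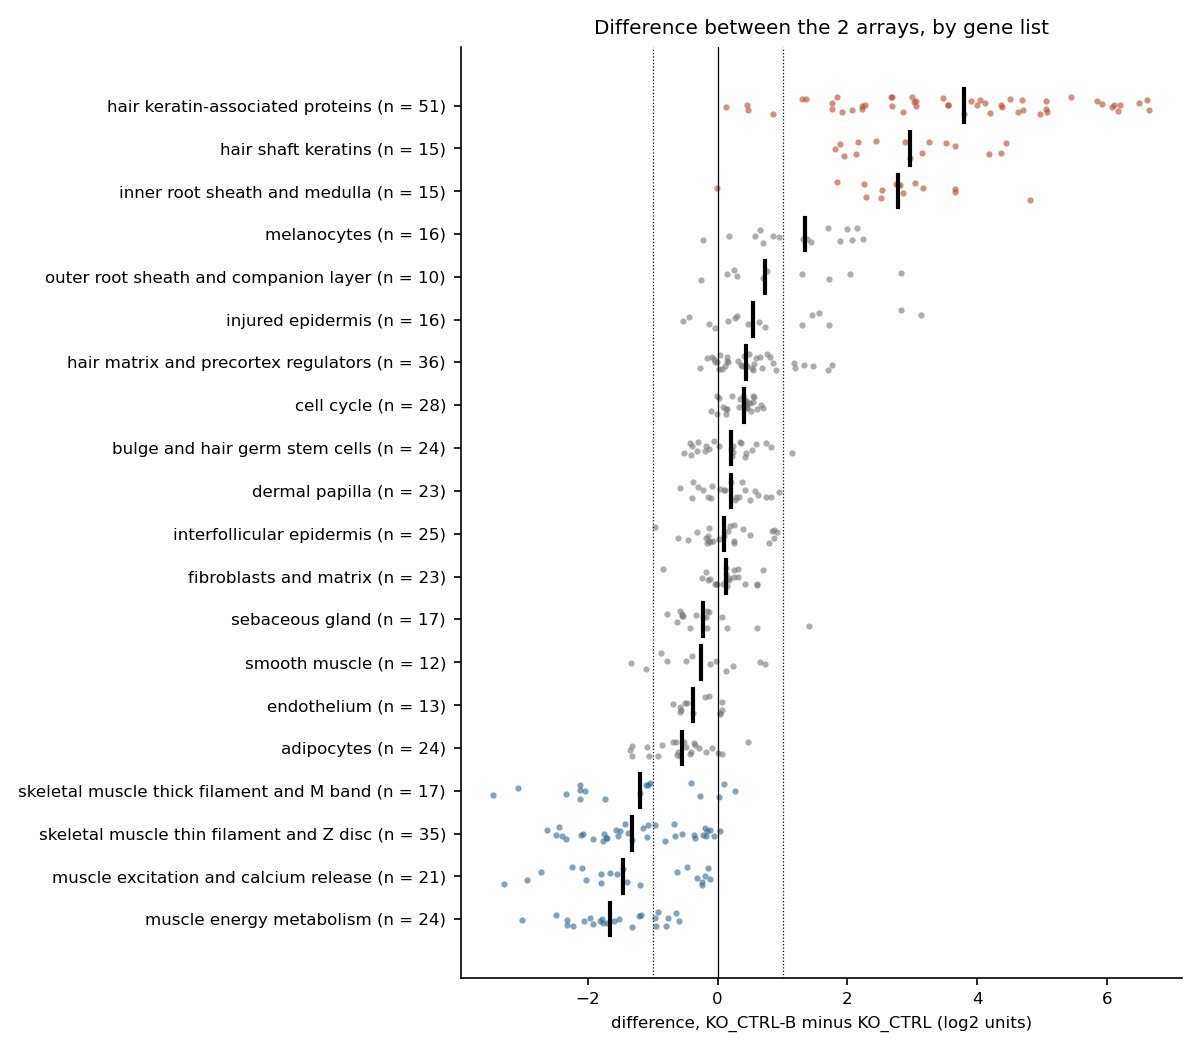
Difference between KO_CTRL-B and KO_CTRL (horizontal, log2 units) for each member (points) of 20 gene lists, with the list median as a black bar; dotted lines mark 1 log2 unit either way, red lists are hair shaft and inner root sheath, blue lists skeletal muscle fibre. The medians run from 3.80 for the hair keratin-associated proteins to -1.65 for muscle energy metabolism, while dermal papilla (0.20) and interfollicular epidermis (0.10) lie near 0.

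Skeletal muscle fibre genes were lower on KO_CTRL-B. Of 97 genes in 4 lists, 63 passed 1 log2 unit downward and none upward, 93 were negative, and the median difference was -1.43. KO_CTRL was the highest of the 4 arrays without IMQ for 77 of them and the highest of all 8 for 70. WT_CTRL lay closer to KO_CTRL for 59 of the 63 genes that passed, while KO_Allo lay closer to KO_CTRL-B for 62. Over all 307 genes lower on KO_CTRL-B, WT_CTRL lay closer to KO_CTRL for 191, and KO_Allo closer to KO_CTRL-B for 281 (91.5%). The sides taken by WT_CTRL were thus opposite for most hair and most muscle genes. Its hair genes were mostly nearer to KO_CTRL-B and its muscle genes nearer to KO_CTRL. The same split held for most of all higher and all lower genes, so it was not particular to hair and muscle.

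In the thick filament and M band list, 12 of 17 genes were lower (median -1.19). Myh4, the myosin heavy chain of the fastest fibres, read 12.88 on KO_CTRL, 12.60 on WT_CTRL, 9.43 on KO_CTRL-B and 5.85 on KO_Allo. The difference between the knockout arrays was -3.45. Myh2, the heavy chain of fast oxidative fibres, read 8.95 and 7.88, and Myh1, of an intermediate fast type, 11.33 and 11.06, so that the 3 fast myosins did not differ alike. Mybpc2, the fast form of myosin-binding protein C, read 10.23 and 7.15, whereas its slow form Mybpc1 read 10.29 and 9.09. Titin (Ttn), the spring of the sarcomere, read 12.33 and 10.59. The myosin heavy chain genes are similar in sequence, so cross-hybridisation between their probe sets cannot be told from these files.

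Thin filament and Z disc genes were lower in 21 of 35 cases (median -1.32). Actn3, the alpha-actinin of fast fibres, read 11.42 on KO_CTRL and 8.79 on KO_CTRL-B, while Actn2, present in all fibres, read 9.09 and 8.13. Xirp2, an actin-binding protein, read 10.37 and 7.88 (a second probe set of it differed by -0.63), Myoz1 9.83 and 7.39, and the fast troponin I gene Tnni2 10.67 and 8.27. Skeletal actin (Acta1) read 12.51 and 10.94. The slow troponins Tnni1 (5.78 and 5.82), Tnnt1 (5.68 and 5.46) and Tnnc1 (6.39 and 6.28) were nearly level.

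Genes for excitation and calcium release were negative in 21 of 21 cases and 13 passed (median -1.45). Triadin (Trdn), an anchor of the calcium release complex, read 10.82 and 7.54. Casq1, the calcium store protein of fast fibres, read 10.81 and 7.87, against 6.54 and 6.35 for Casq2, its cardiac and slow form. Parvalbumin (Pvalb), a calcium buffer of fast fibres, read 9.62 and 6.89. Atp2a1, the fast calcium pump, read 11.76 and 9.68, and Atp2a2, the pump of slow fibres and many other cells, 10.39 and 10.25. Ryr1, the release channel, differed by -1.79 (by -0.30 on a second probe set).

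Muscle energy genes were negative in 24 of 24 cases and 17 passed (median -1.65). Ampd1, the muscle AMP deaminase, read 9.43 and 6.42, muscle glycogen phosphorylase (Pygm) 11.14 and 8.66, and muscle creatine kinase (Ckm) 11.75 and 9.43. Cox6a2, a muscle subunit of cytochrome oxidase, read 9.38 and 7.05. Myoglobin (Mb), more typical of oxidative fibres, differed by -0.92.

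Grouped after the values were seen, the 14 fast-fibre genes and the 12 slow-fibre and cardiac-type genes came apart. The fast genes had a median difference of -2.37 and 13 of 14 passed, with Myh1 as the exception. Their median level was 10.74 on KO_CTRL, 10.42 on WT_CTRL, 8.24 on KO_CTRL-B and 8.18 on KO_Allo. None of these slow genes passed (median -0.16), and their median level lay between 5.67 and 5.98 on those arrays, not far above the olfactory range. The slow and cardiac-type group leaves out Mybpc1, which differed by -1.19. It also leaves out Actc1, a cardiac-type actin gene, which read 6.08 on KO_CTRL and 4.77 on KO_CTRL-B (-1.32). Not every slow-form or cardiac-type gene was therefore level.

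**Figure D4:**
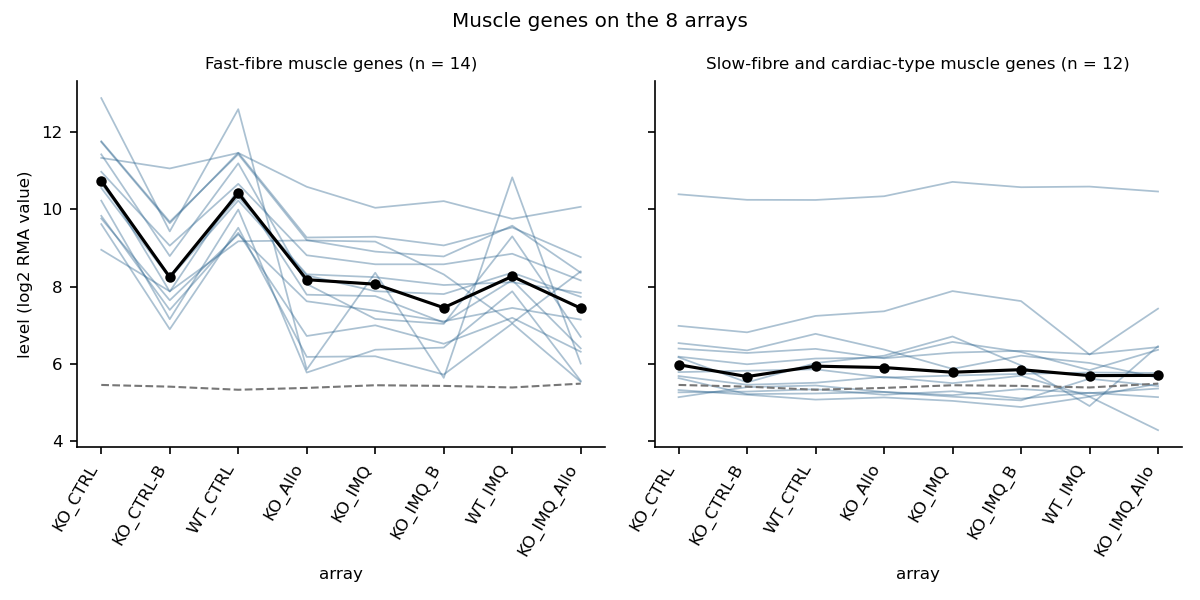
Levels (vertical, log2 RMA value) of 14 fast-fibre and 12 slow-fibre or cardiac-type muscle genes on the 8 arrays (horizontal); thin lines are genes, black points the median, and the dashed grey line the 95th percentile of olfactory receptor genes. The fast medians on KO_CTRL (10.74) and WT_CTRL (10.42) stand above the other 6 arrays, while the slow medians stay between 5.67 and 5.98.

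Genes of the muscle membrane, junction and precursor cells were mixed, with 7 of 23 lower (median -0.35). Mstn, the secreted brake on muscle growth, read 8.72 on KO_CTRL, 8.15 on WT_CTRL, 5.56 on KO_CTRL-B and 3.36 on KO_Allo. Dystrophin (Dmd), which links the fibre's skeleton to its membrane, differed by -1.54. The satellite cell factor Pax7 (5.63 and 5.50) and Myod1 (5.40 and 5.62) lay near the olfactory range on both arrays. None of 8 developmental and regeneration genes passed: embryonic myosin Myh3 read 5.22 and 4.25, and perinatal Myh8 6.39 and 6.12. A second probe set of Myh8 differed by -1.06, past the threshold. The muscle transcription factors Myf6 (7.11 and 5.92) and Mef2c (8.86 and 7.77, with a second probe set at -0.40), the latter also used by other cells, passed downward. Among 12 smooth muscle genes, found in vessels and the muscles that raise hairs, Synpo2 (7.83 and 6.50) and Myh11 (9.02 and 7.92) passed downward (median -0.26), and Acta2 read 9.28 and 9.51.

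Among other muscle genes picked out after their values were seen, Mylk4 read 9.88 and 7.12, Asb15 7.91 and 4.96, and Klhl31 10.18 and 7.65. Pdk4, a switch from glucose to fat oxidation that rises in fasting in several tissues, read 10.76 and 8.74.

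Fat genes were lower on KO_CTRL-B too, on a smaller scale than muscle. Of 24 adipocyte genes, 5 were lower on KO_CTRL-B, 21 were negative and the median difference was -0.55. Adiponectin (Adipoq) read 8.47 on KO_CTRL, 8.12 on WT_CTRL, 7.12 on KO_CTRL-B and 6.34 on KO_Allo. Leptin (Lep) read 8.29, 7.79, 6.98 and 5.40 on those arrays, the same order as Myh4. Car3, which both fat and muscle express, read 12.32 and 10.99, Cidec, a lipid droplet protein, 9.69 and 8.62, and Pck1 8.34 and 7.25. The lipid synthesis genes Fasn (10.68 and 10.75) and Acaca (8.60 and 8.61), which sebaceous glands also use, were level, and so was the brown fat marker Ucp1 within the olfactory range (4.72 and 4.43).

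Other structures and cells of the skin had few genes past the threshold. In 4 lists whose median lay within 0.10 of 0, interfollicular epidermis and neutrophils among them, the sign changed under some settings. Medians were 0.10 for 25 interfollicular epidermis genes, 0.13 for 23 fibroblast and matrix genes and -0.22 for 17 sebaceous gland genes, of which Fads2 alone passed (7.30 and 8.70). Endothelial genes had a median of -0.38 (0 of 13 passed), macrophage genes 0.31 (0 of 15), lymphocyte genes -0.04 (0 of 16, with 10 within the olfactory range on KO_CTRL) and neutrophil genes 0.05 (0 of 12). Mast cell genes had a median of -0.42, with 9 of 11 negative and Cpa3 past the threshold (7.88 and 6.71). The clock gene Npas2 (7.44 and 6.30) and the immediate early gene Nr4a1 (8.39 and 6.99) were the only members of their lists past the threshold.

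Of 16 genes of injured epidermis, 6 passed upward on KO_CTRL-B, 12 were positive and 4 negative (median 0.55). Krt6a, Krt6b and Krt16, among those that passed, are also in the outer root sheath and companion layer list. Il1f9 (8.12 and 7.68) and Defb3 (5.11 and 4.58) were negative, and 7 of the 16 lay within the olfactory range on KO_CTRL. Stfa3, a cysteine protease inhibitor, read 6.54 on KO_CTRL, 7.50 on WT_CTRL, 9.67 on KO_CTRL-B and 11.07 on KO_Allo. Krt6b, a keratin of wounded epidermis and the companion layer, read 4.67, 5.00, 7.49 and 11.83. On KO_IMQ these read 12.51 and 12.66, so KO_CTRL-B stayed well below the arrays with IMQ. The connexin genes Gjb2 (8.13 and 10.41) and Gjb6 (5.05 and 7.14), which follicles also express, and Rptn (6.41 and 8.14), named after their values were seen, were higher on KO_CTRL-B too.

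Several genes with the largest negative differences belonged to no hair or muscle list. Serpinb6d, a protease inhibitor gene, had the largest negative difference among genes above the median level, with 10.57 on KO_CTRL and 6.25 on KO_CTRL-B, with 8.31 on WT_CTRL and 7.46 on KO_Allo. Defb8, a beta-defensin, read 9.70, 6.44, 8.63 and 4.84 on those arrays, and S100a7l2 7.70, 4.68, 6.32 and 4.54. Skint5 (7.08 and 5.23) and Skint6 (7.16 and 5.26), epidermal relatives of a protein needed by skin gamma-delta T cells, were also lower and were picked out for their values. Il20ra, a receptor chain for cytokines related to IL-22, read 8.39 and 7.10.

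A difference in small nucleolar RNAs ran alongside. Snord13, a small nucleolar RNA, read 8.71 on KO_CTRL, 8.86 on KO_Allo and at most 9.33 on KO_IMQ and KO_IMQ_Allo, against 11.32 to 12.08 on KO_CTRL-B, WT_CTRL, KO_IMQ_B and WT_IMQ. Rabggtb, whose introns host small nucleolar RNAs, read 6.73 on KO_CTRL and 9.35 on KO_CTRL-B, with the same 4 arrays low. Over 73 small nucleolar RNAs the median difference was 0.25 and 5 passed upward. Ribosomal protein genes had a median difference of 0.17 over 63 genes. The part of this difference in the results above was not tested.

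The letter B recurs in the labels of the IMQ arrays, and KO_IMQ_B minus KO_IMQ shares no array with the comparison above. There 138 genes were higher (0.622%) and 65 lower (0.293%) by 1 log2 unit or more, together 203 (0.915%). Of the higher genes 79 were shared, 24.4% of the 324 and 57.2% of the 138. Of the lower genes 8 were shared, 2.61% of the 307 and 12.3% of the 65. Across 22180 genes, which are not independent, Pearson's r between the differences was 0.33, given as a description.

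More hair genes than muscle genes passed in that pair. Of the 81 hair and inner root sheath genes, 37 were higher on KO_IMQ_B, with a median difference of 0.88, against 76 and 3.06 without IMQ. The inner root sheath keratins differed more with IMQ than without (median 3.66 against 2.66): Krt71 read 4.59 on KO_IMQ and 10.44 on KO_IMQ_B, and Tchh 5.04 and 10.57. Hair shaft keratins differed less (median 0.73 against 2.96), with Krt33a at 5.41 and 7.66. KAPs came to 0.86 against 3.80. The Hedgehog targets Hhip (4.47 and 6.63), Ptch1 (7.83 and 9.09) and Gli1 (5.92 and 7.03) were higher on KO_IMQ_B, by 2.16, 1.26 and 1.10 log2 units against 0.82, -0.04 and 0.14 without IMQ, as were Lef1 (6.02 and 7.59) and Hoxc13 (5.53 and 6.99). Of the 97 muscle fibre genes 1 passed, Myh4 (8.36 and 5.63), and the median was -0.23. Melanocyte genes had a median of 0.46 and adipocyte genes of -0.30. Whether the differences themselves differ between these pairs could not be tested with 1 array per label.

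**Figure D5:**
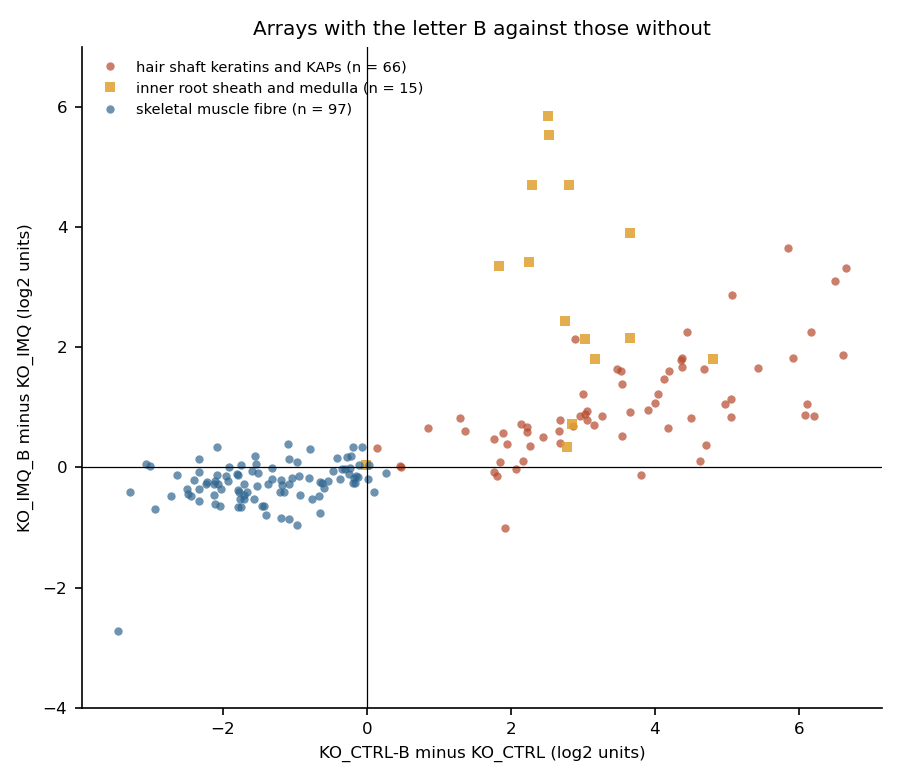
Difference between the arrays with and without the letter B, without IMQ (horizontal, KO_CTRL-B minus KO_CTRL, log2 units) and with IMQ (vertical, KO_IMQ_B minus KO_IMQ, log2 units), for hair shaft keratins and KAPs (red), inner root sheath and medulla (yellow) and skeletal muscle fibre genes (blue), each point a gene. Inner root sheath genes reach 5.85 on the vertical axis (Krt71), while most muscle genes spread along the horizontal axis, with Myh4 alone past 1 log2 unit downward on both.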

How the data were processed

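Total RNA of dorsal skin was hybridised to 8 Affymetrix arrays, 1 per label. The deposited values are log2 levels for 41345 probe sets, which the authors summarised by RMA, using Affymetrix Power Tools. The submitters' processing notes give both names, and R 3.3.2 without a role. RMA puts the arrays on a common distribution and compresses differences of dim genes. There are no detection calls and no depth, so the number of arrays limits the precision. Array medians differed by at most 0.05, and 0 array pairs were identical.

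The platform annotation gave 1 symbol to 23521 probe sets, several to 1814 and none to 16010. A gene was represented by its single-symbol probe set with the highest mean over the 8 arrays, giving 22180 genes. Differences, list medians and counts were computed with Python 3.11.15 and pandas 2.3.3. Counting past the threshold was tried on simulated data with large shifts and little noise, and the list medians were not. The gene lists, members and rule for named genes (the 10 largest differences each way, and the largest of each list) were chosen with earlier results of these data known. Subgroups and some further genes, marked in the text, were chosen after their values were seen. Alternatives covered probe set choice, dim genes, scaling and threshold. Promoters were matched by symbol to RefSeq (GRCm38.p6) for 68 of 81 hair and 72 of 97 muscle genes.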

Additional observations from a re-analysis of the deposited data

Results flagged for a closer look

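For 7 named genes the arrays with the letter B lay on opposite sides of those without it, depending on IMQ, each by more than 0.5 log2 units. They were picked by this rule from the members of all the lists, and the share over all genes was not computed. The difference between the pairs was not tested, since each label has 1 array. KO_CTRL-B minus KO_CTRL and KO_IMQ_B minus KO_IMQ came to -1.28 and 0.63 for Il20ra, a cytokine receptor chain, and to 1.92 and -1.01 for Krtap31-2, a keratin-associated protein gene. The interferon-induced genes Ifit1 (-0.81 and 0.64), Rsad2 (-0.78 and 0.55) and Mx2 (-0.58 and 0.85) did the same, as did the late epidermal genes Flg2 (-0.60 and 0.53) and Lce3f (0.73 and -0.95). Some of these rest on background signal: Krtap31-2 (4.68 and 3.68) and Mx2 (3.87 and 4.72) lay within the range of olfactory receptor genes on both arrays with IMQ, and Lce3f (3.23 and 3.96) on both without it.

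Probe sets without a gene symbol, which no list uses, held more low than high values on KO_CTRL-B. Of 16010 such probe sets, 614 were lower (3.84%) and 288 higher (1.80%) by 1 log2 unit or more, whereas named genes were near balance. Other pairs without IMQ were uneven too: WT_CTRL minus KO_CTRL-B had 588 higher and 229 lower. KO_Allo minus WT_CTRL had 342 and 649, and KO_Allo minus KO_CTRL 242 and 483. WT_CTRL minus KO_CTRL (365 and 317) and KO_Allo minus KO_CTRL-B (407 and 341) were nearer balance. Median levels of probe sets without a symbol were 5.34 on KO_CTRL and 5.26 on KO_CTRL-B, within the olfactory range.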

How the results depend on the processing

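Of 251 list medians recomputed under an alternative, over 36 lists, 243 stayed within 0.25 log2 units. The sign changed 6 times, in 4 lists whose median was at most 0.10 from 0 (interfollicular epidermis, neutrophils, type I interferon response and immediate early genes), and in none of the hair, melanocyte, muscle or fat lists. The counts moved with the filter and the threshold. Genes higher on KO_CTRL-B numbered 215 without dim genes, 1513 at a threshold of 0.5 log2 units and 116 at 2. Genes lower numbered 204, 1499 and 43. Without dim genes the median was 2.86 for KAPs, so that the hair shaft keratins (3.15) ranked above them, -1.89 for the thick filament list, -1.80 for excitation and calcium release (-1.71 for muscle energy), and -1.09 for muscle membrane, junction and precursor cells. The thick filament median was -1.74 without members in the olfactory range, and the mean of the membrane, junction and precursor list was -0.62. Of 45 listed genes with several probe sets, 11 had probe sets of opposite sign and 4 had probe sets at least 1 log2 unit apart. No paired analysis was possible because each label has 1 array, and leaving out a replicate was not possible for the same reason.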
